A study of Mus musculus with 10 samples.

Results

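The genes described here are the neuregulin and ErbB genes of the embryonic mouse heart, 8 of the 23195 genes in the deposited table, taken by their gene symbols. They comprise 4 ligands (*Nrg1*, *Nrg2*, *Nrg4* and *Hbegf*) and the 4 receptors of the family (*Egfr*, *Erbb2*, *Erbb3* and *Erbb4*). PolyA RNA-seq was performed on hearts of 5 wild-type and 5 *Nos1ap* null male embryos at embryonic day 13.5 (E13.5), all on the C57BL6/J strain background. The null embryos carried the constitutive tm1d allele, in which Cre recombinase driven by a CMV promoter had removed the floxed exon 4 and which holds neither *lacZ* nor the *neo* cassette, and the wild-type embryos carried no targeted allele. *Nos1ap* encodes an adaptor protein of neuronal nitric oxide synthase. The study asked whether its constitutive loss altered the transcriptome of the heart before birth, and both groups came from dissected heart tissue.

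Neuregulins and the other ligands of this family carry an EGF-like domain and are made mostly as membrane-bound precursors that are cut free by proteases. They bind receptor tyrosine kinases that act in pairs. ErbB2 has no known ligand of its own and serves as the partner of the others, ErbB3 binds neuregulins but has little kinase activity, and ErbB4 binds neuregulins and is an active kinase. In the developing heart, neuregulin-1 from the endocardium acts on ErbB2 and ErbB4 of the myocardium and is needed for the trabeculae to form, while ErbB3 is used in the endocardial cushions, the precursors of the valves. HB-EGF and EGFR are known for their part in shaping the valves.

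The table gives the mean of each group only. Values of single libraries were derived from those means, which average 5 whole read counts, scaled per library by the authors' size factors, and are printed to many digits, so that the whole counts could be sought. A normalized count is a read count so scaled. Libraries are numbered from 1 to 5 within a group by descending size factor, a numbering that cannot be tied to the replicates named in the labels. Counts could be derived for 7 of the 8 genes. The mean of *Erbb2* was above 1000, the highest mean searched, and for this gene only the authors' mean of each group is given. An estimated 11328000 to 14023000 read pairs per library fell on genes. *Nos1ap* itself averaged 144 ± 14.4 (SD, n = 5) normalized counts in wild-type hearts and 39.8 ± 5.20 in null hearts (log2 fold change -1.83, limma adjusted *P* = 9.85e-09), and its counts of 124 to 169 per library in wild type did not overlap with those of 29 to 47 in null. The 9 cardiomyocyte markers checked (*Tnnt2*, *Myh6*, *Nkx2-5* and others) had authors' means of 1648 to 129864 normalized counts in both groups, with log2 ratios of the null to the wild-type mean between -0.03 and 0.08. Fewer cells of a type and less RNA per cell cannot be told apart in RNA from heart tissue.

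Wild-type library 3 stands apart from the other 9 libraries, which bears on several genes below. The summed normalized count of the neuron markers whose counts were derived (7 of 13) was 771.6 in it and 94.52 to 119.1 in the others, that is 94.52 to 113.8 in null and 111.5 to 119.1 in the remaining wild-type libraries. For markers of neural crest-derived glia (8 of 9, with *Erbb3* set aside) the sum was 503.9 in it and 119.7 to 170.1 in the others. *Sox10*, a transcription factor of neural crest glia, had 141 in it and 6.44 to 16.2 elsewhere. The 6 neuron markers without derived counts had higher authors' means in wild type than in null, such as 310.9 against 17.91 for *Nefm*, and 334 against 234.4 for *Gap43*. All 7 neuron markers and 7 of the 8 glia markers were highest in this library. Fold changes and levels that rest on it are therefore also given without it. *Nos1ap* had a log2 fold change of -1.88 without it.

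Across the receptors and ligands, the comparison of null with wild-type hearts gave 0 genes past the threshold. Of all 10364 protein-coding genes tested, 3 (0.0289%) passed an adjusted *P* of 0.05 in limma, 1 of them higher and 2 lower in null. The voom form of limma also called 3. At an unadjusted *P* under 0.05, limma gave 1 of the 6 members tested (*Erbb4*) against 3.54% of all genes (367), and voom gave 352 genes in all. In 0 of the 7 members with values of single libraries did the groups fail to overlap, against 0.782% (81) of all genes tested. Exact two-sided permutation tests over all arrangements of the 10 libraries were computed for these 7 members, and they allow no *P* below 0.00794.

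**Figure D1:**
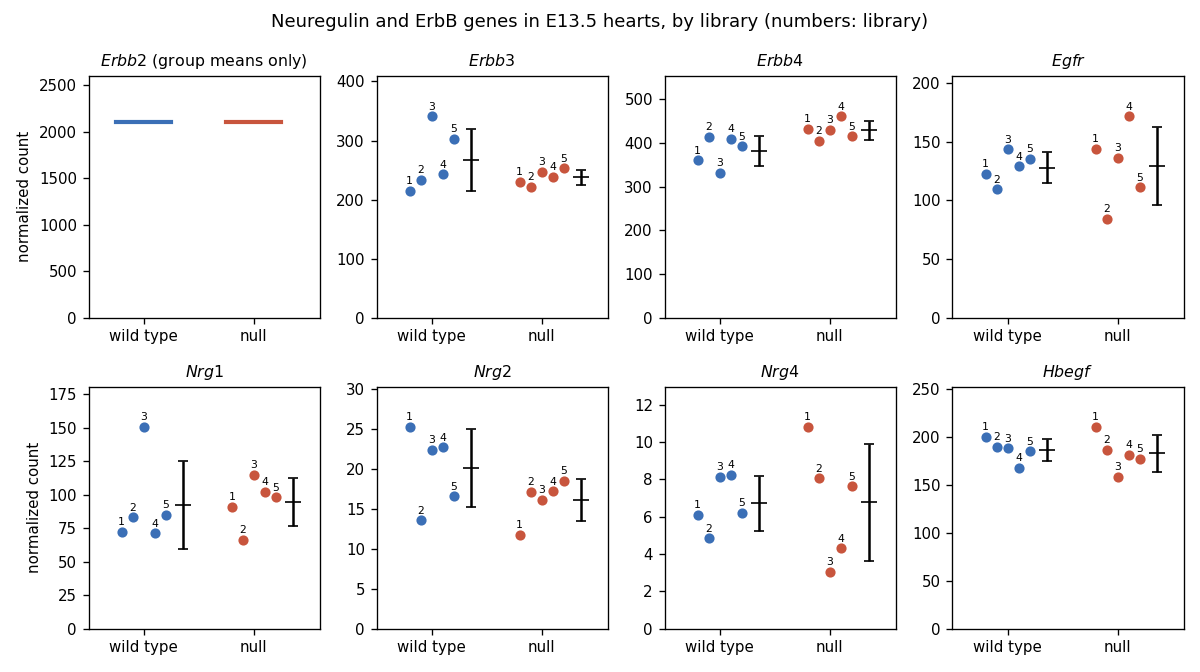
Normalized count of each neuregulin and ErbB gene in every library (points, numbered by library within the group), with the mean and SD of the 5 libraries of a group in black. *Erbb2* is drawn as the authors' group means only, 2100 and 2109. Wild-type library 3 is the highest of 10 for *Nrg1* (150.6) and *Erbb3* (341) and the lowest for *Erbb4* (330.8), and the groups overlap in all 7 genes with points.

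*Nrg1*, the neuregulin of the endocardium (chromosome 8, 31814551 to 32884029, minus strand, GRCm38), had 72.2, 83.2, 150.6, 71.2 and 84.8 normalized counts in wild-type libraries 1 to 5. In null libraries 1 to 5 it had 90.9, 66.4, 114.9, 102.0 and 98.0. Wild-type library 3 is above all other libraries, and the remaining wild-type libraries lie within the range of the null. The means were 92.4 ± 33.1 and 94.4 ± 18.0 (SD, n = 5 each), a log2 fold change of 0.07 with a 95% interval from -0.36 to 0.50 (SE 0.199, limma adjusted *P* = 0.998, exact permutation *P* = 0.913). The SD in wild type was 35.8% of the mean, where counting alone would give 10.3%. Without library 3 the wild-type mean was 77.9 ± 7.16 (n = 4), and 4 of the 5 null libraries were above the highest of these 4. The log2 fold change was then 0.26, with an interval from -0.03 to 0.54 (limma unadjusted *P* = 0.0723). *Nrg1* in library 3 was 1.93 times the mean of the other 4 wild-type libraries, in the library with the neuron and glia markers. Neurons are a known source of neuregulin-1. The summed markers of cushion mesenchyme (5 of 9 genes) were also highest in library 3 (1339). They were nearly as high in wild-type library 5 (1336), where *Nrg1* was 84.8. In null, both these markers and *Nrg1* were highest in library 3 (1289 for the markers) and lowest in library 2 (888.9). The part of any of these markers in the level of *Nrg1* was not tested.

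*Nrg2*, a neuregulin that binds ErbB3 and ErbB4 (chromosome 18, 36017652 to 36197380, minus strand), was low in every heart. Its normalized counts were 25.2, 13.6, 22.4, 22.7 and 16.5 in wild type and 11.7, 17.1, 16.1, 17.2 and 18.5 in null. Although 3 wild-type libraries were above all null libraries, the other wild-type libraries lay within the null range. The log2 fold change was -0.28 with an interval from -0.76 to 0.20 (means 20.1 ± 4.84 and 16.1 ± 2.61, limma adjusted *P* = 0.998, exact permutation *P* = 0.127). Its SD was 24.1% of the mean in wild type and 16.2% in null, and counting alone would give 22.1% and 25.1%. Without wild-type library 3 the log2 fold change was -0.24. A change of up to 0.76 on the log2 scale downward lay within the error of this gene.

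*Nrg4*, a ligand of ErbB4 best known from adipose tissue (chromosome 9, 55220222 to 55326844, minus strand), was the least abundant of the 8, and its mean was below the 10 normalized counts required for the test. It had 6.09, 4.84, 8.14, 8.26 and 6.21 normalized counts in wild-type libraries and 10.8, 8.04, 3.02, 4.29 and 7.62 in null. The null libraries hold both the highest and the lowest values. The means were 6.71 ± 1.46 and 6.76 ± 3.11 (exact permutation *P* = 0.976), and without wild-type library 3 the wild-type mean was 6.35 ± 1.41. In a limma fit that also admits genes of low level, down to a mean of 2, the log2 fold change was -0.07 with an interval from -0.80 to 0.65, so that the depth of these libraries resolves only large changes of *Nrg4*.

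*Hbegf*, which encodes the EGF-like ligand of EGFR and ErbB4 (chromosome 18, 36504927 to 36515805, minus strand), was the most even of the ligands. It had 200.1, 189.7, 188.3, 168.2 and 185.2 normalized counts in wild-type libraries and 210.6, 187.0, 158.3, 181.5 and 177.5 in null. The wild-type libraries lie inside the range of the null. Means were 186.3 ± 11.6 and 183.0 ± 18.9, with a log2 fold change of -0.03 and an interval from -0.20 to 0.14 (limma adjusted *P* = 0.998, exact permutation *P* = 0.762). The wild-type SD, 6.20% of the mean, was below the 7.27% expected from counting, and wild-type library 3 was at 1.01 times the mean of the other 4. The log2 fold change without it was -0.03.

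*Erbb2*, the shared partner receptor (chromosome 11, 98412470 to 98437716, plus strand), was the most abundant of the 8 genes. The authors' means were 2100 normalized counts in wild-type libraries and 2109 in null, a log2 ratio of 0.0059. The null mean was 100.4% of the wild-type mean. With no values of single libraries, no SD or test is given here for this gene, and the authors' own test was not used.

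*Erbb3*, the neuregulin receptor with little kinase activity (chromosome 10, 128567523 to 128589652, minus strand), had 214.9, 233.3, 341.0, 242.5 and 303.1 normalized counts in wild-type libraries 1 to 5. In null it had 229.5, 221.2, 247.0, 238.4 and 252.7. Wild-type libraries 3 and 5 are above all null libraries and library 1 is below them all, so that the wild-type values enclose those of the null. Means were 267.0 ± 53.0 and 237.8 ± 12.8, with a log2 fold change of -0.15 and an interval from -0.37 to 0.08 (SE 0.105, limma adjusted *P* = 0.998, exact permutation *P* = 0.349). The SD was 19.8% of the mean in wild type, against 6.07% from counting, and 5.36% in null, against 6.53%. Without wild-type library 3 the log2 fold change was -0.05 (limma unadjusted *P* = 0.542). Without wild-type library 1, the lowest, it was -0.22 with an interval from -0.42 to -0.02 (limma unadjusted *P* = 0.0362, adjusted *P* = 0.999). Beside the neuron and glia markers of library 3, the summed markers of cushion mesenchyme (5 of 9 genes) were highest in wild-type libraries 3 and 5, the libraries with the highest *Erbb3*. Those sums were 1339 in library 3 and 1336 in library 5, 1049 to 1094 in the other wild-type libraries and 888.9 to 1289 in null. *Twist1* and *Prrx1* were highest in these libraries, whereas *Snai1* was highest in null library 3 (180, against 131 and 142), and *Msx1* and *Snai2* were highest in only 1 of them. The cushion markers left out of the sum have no derived counts. Of these, *Postn*, *Tbx20* and *Fbln2* had higher authors' means in null (5305, 6255 and 5021) than in wild type (5160, 5824 and 4793). The mean of *Sox9* was lower in null (680.1 against 721.4), as were those of all genes in the sum. Wild-type library 5 had 128.3 for the sum of glia markers, within the range of the remaining libraries. The part of either marker list in the level of *Erbb3* was not tested.

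*Erbb4*, the kinase-active neuregulin receptor of the myocardium (chromosome 1, 68032186 to 69108059, minus strand), had the smallest unadjusted *P* of the 7 genes with one. It had 360.2, 413.3, 330.8, 408.7 and 392.1 normalized counts in wild-type libraries and 432.0, 405.2, 429.5, 460.7 and 414.9 in null. Of the null libraries, 4 lay above the highest wild-type library, and the exception, null library 2, lay above the wild-type median. The means were 381.0 ± 35.0 and 428.5 ± 21.1, a null level of 112.5% of wild type. The fold change was 1.13 (log2 0.17, SE 0.0634), with an interval from 0.04 to 0.30 on the log2 scale. Its unadjusted limma *P* of 0.0132 was the 82nd smallest of 10364 and became 0.998 after adjustment, and the exact permutation *P* was 0.0317 before any adjustment. Of all genes tested, 12.7% had a larger absolute log2 fold change. Without wild-type library 3, the lowest of all 10 for this gene, the log2 fold change was 0.12 with an interval from -0.0015 to 0.25 (limma unadjusted *P* = 0.0526). The difference of *Erbb4* thus did not pass the test in either case.

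*Egfr*, the receptor of HB-EGF and EGF (chromosome 11, 16752203 to 16918158, plus strand), had 122.7, 109.4, 143.5, 129.0 and 135.5 normalized counts in wild type. In null it had 144.0, 84.5, 136.1, 171.8 and 111.1. The null libraries spread to both sides of the wild-type range, with library 2 lowest and library 4 highest of all 10. The means were 128.0 ± 13.0 and 129.5 ± 33.2, a log2 fold change of -0.02 with an interval from -0.35 to 0.31 (SE 0.153, limma adjusted *P* = 0.998, exact permutation *P* = 0.913). Without wild-type library 3 the log2 fold change was 0.02 (interval from -0.33 to 0.38), so that its direction turned. The SD in null was 25.6% of the mean, against 8.85% from counting, whereas in wild type it was 10.1% against 8.77%. Null library 2 also had the lowest sum of cushion mesenchyme markers (888.9) and the highest sum of the 3 of 8 erythroid markers with derived counts, 421.3 against 68.56 to 266.3 in the others. Their part in the level of *Egfr* was not tested.

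**Figure D2:**
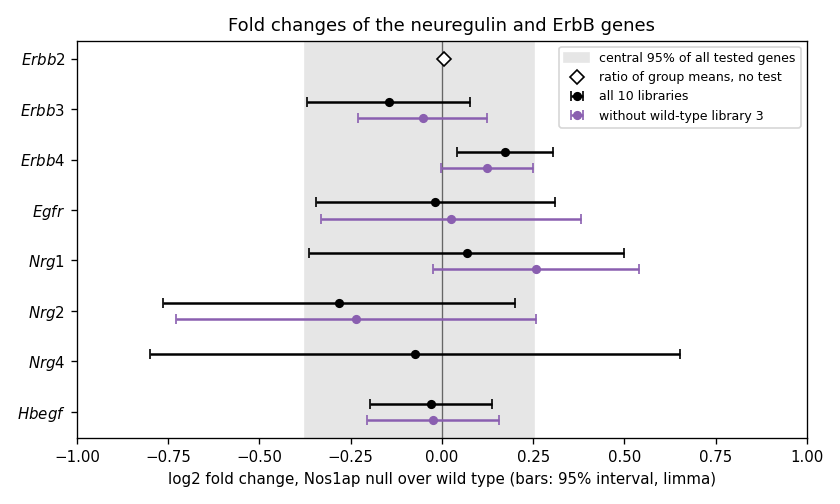
Log2 fold change of null over wild-type hearts for each gene on the log2(normalized count + 1) scale, with 95% intervals from limma, for all 10 libraries (black) and without wild-type library 3 (purple). The grey band spans the central 95% of all 10364 genes tested, from -0.37 to 0.25. The interval of *Erbb4* lies above 0 with all libraries (0.04 to 0.30) and reaches -0.0015 without library 3. *Nrg4* is from the fit that admits means down to 2 and has no value without library 3, and *Erbb2* is the ratio of the authors' means.

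Other cell types were checked in the same way. The summed markers of endocardium and endothelium (4 of 11) were 2615 in wild-type library 3 and 2572 to 2708 in the others, with 2597 to 2691 in wild type and 2572 to 2708 in null. Those of the epicardium (5 of 8) were 1954 in it and 1762 to 2018 in the others, and macrophage markers (7 of 7) summed to 1226 in it and to 1006 to 1149 in the others. Lung and airway epithelium markers (6 of 9) summed to 454 in it and to 334.2 to 408 in the others. Most of that sum is the keratin genes *Krt8* (161) and *Krt18* (229), which were within or near the range of the others. The remaining 4 of these markers were low but highest in library 3, with *Sox2* at 25.4 against 0.9 to 7.24, *Cdh1* at 16.3 against 1.01 to 4.14, *Epcam* at 13.2 against 0 to 6.03 and *Foxa2* at 9.16 against 0 to 1.03 normalized counts. Erythroid markers (3 of 8) summed to 90.59 in library 3, within the range of the others. Their sums overlapped between groups, 73.45 to 266.3 in wild type and 68.56 to 421.3 in null. The authors' means of all 8 were nevertheless higher in null than in wild type. They were 115000 against 69480 for *Hbb-y*, 3337 against 1933 for *Slc4a1* and 14950 against 13000 for *Hbb-bt*. The part of the erythroid markers in the levels of the members was not tested. Nor was that of the epithelial markers in the levels of *Nrg1*, *Erbb3* and *Erbb4* in wild-type library 3.

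**Figure D3:**
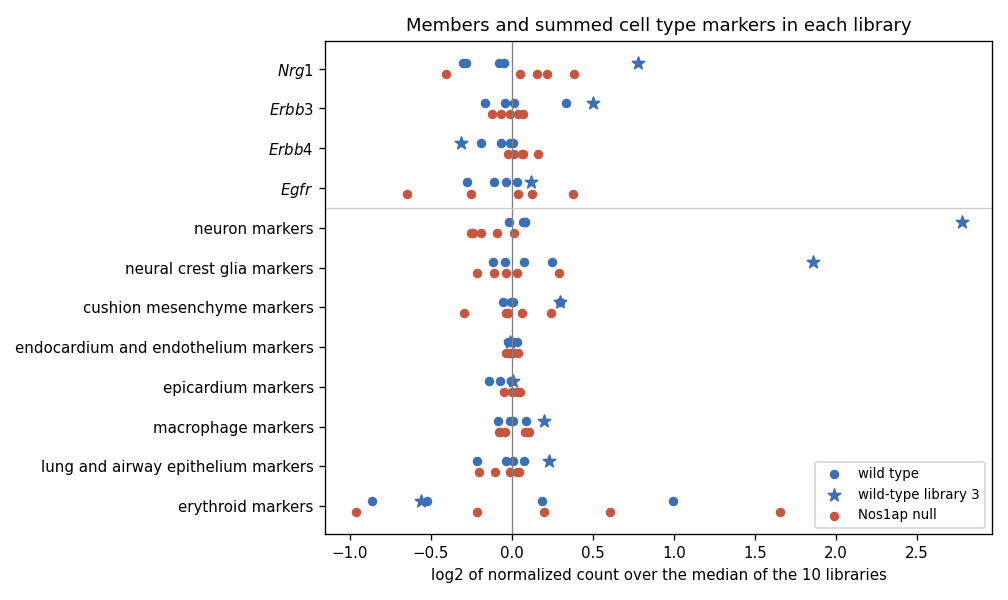
*Nrg1*, *Erbb3*, *Erbb4* and *Egfr* beside the summed normalized counts of cell type markers in each library, as the log2 of the value over the median of the 10 libraries. The star is wild-type library 3, which stands far to the right for neuron (771.6) and neural crest glia (503.9) markers, to the right for *Nrg1* and *Erbb3*, and to the left for *Erbb4*.

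Levels were compared between genes as normalized counts per kilobase of exon, with the union of all annotated exons of a gene as its length. In wild type, *Erbb2* had 403 per kb, *Erbb3* 44.4 ± 8.81, *Hbegf* 38.5 ± 2.39 and *Erbb4* 30.8 ± 2.83. *Egfr* followed with 11.3 ± 1.15, *Nrg1* with 8.93 ± 3.20, *Nrg2* with 6.40 ± 1.54 and *Nrg4* with 1.10 ± 0.241. Of neighbours in this order, *Erbb3* and *Hbegf* overlapped between libraries (35.7 to 56.7 and 34.8 to 41.4 per kb), as did *Egfr* and *Nrg1* (9.66 to 12.7 and 6.88 to 14.6) and *Nrg1* and *Nrg2* (4.32 to 8.04 for the latter). The overlap of *Egfr* and *Nrg1* rests on wild-type library 3, without which *Nrg1* had 6.88 to 8.20 per kb (mean 7.52 ± 0.692, n = 4). In null, *Egfr* (7.46 to 15.2) and *Nrg1* (6.41 to 11.1) overlapped, *Erbb3* (36.8 to 42.0) overlapped with *Hbegf*, and *Nrg1* and *Nrg2* (3.73 to 5.90) did not overlap. *Hbegf* and *Erbb4* did not overlap in wild type, where *Erbb4* had 26.8 to 33.5 per kb, but did in null, with 32.7 to 43.6 and 32.8 to 37.3. In null the levels per kb were 405 for *Erbb2*, 39.5 ± 2.12 for *Erbb3*, 37.9 ± 3.90 for *Hbegf*, 34.7 ± 1.70 for *Erbb4*, 11.4 ± 2.93 for *Egfr*, 9.12 ± 1.74 for *Nrg1*, 5.14 ± 0.833 for *Nrg2* and 1.11 ± 0.512 for *Nrg4*, which is the same order of the means. Without library 3 the wild-type means were 41.3 ± 6.35 for *Erbb3* and 31.9 ± 1.95 for *Erbb4*, and the order was again the same.

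*Erbb2*, the partner without a ligand, accounted for 82.3% of the summed level per kb of the 4 receptors in wild type and 82.6% in null. It exceeded *Erbb3* by 9.08 times in wild type and 10.3 times in null, and *Erbb4* by 13.1 and 11.7 times. These wild-type ratios include library 3, and *Erbb2* has no mean without it. Without that library, *Erbb3* had 41.3 per kb in wild type instead of 44.4, and *Erbb4* 31.9 instead of 30.8. Between the neuregulin-binding receptors, the level of *Erbb3* per kb over that of *Erbb4* was 1.16 to 2.12 in wild-type libraries (median 1.23) and 1.06 to 1.25 in null libraries (median 1.12). *Erbb3* was the higher one in all 10 libraries by this length, and the highest ratio was that of wild-type library 3, without which the wild-type ratios were 1.16 to 1.59 (median 1.22). Among the ligands, *Hbegf* exceeded *Nrg1* by 4.31 times in wild type and 4.16 times in null. The wild-type ratio includes the high *Nrg1* value of library 3. Without that library the wild-type means were 38.4 per kb for *Hbegf* and 7.52 for *Nrg1*, which is a larger ratio. The order of genes depends on the length used, since the union of exons is longer than any single transcript of *Nrg1* (18 annotated transcripts), *Nrg4* (13) and *Hbegf* (3). With the longest transcript as the length, *Hbegf* (64.5 per kb in wild type) was above *Erbb3* (44.4), and *Nrg1* (17.1) was above *Egfr* (12.5).

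**Figure D4:**
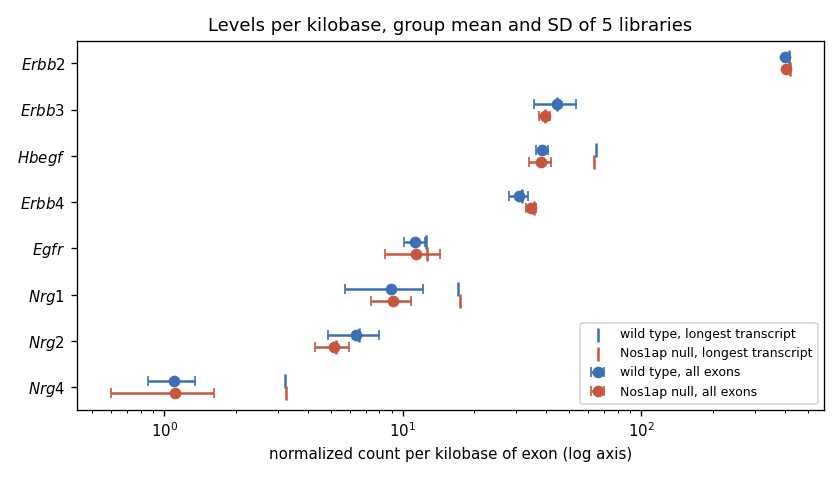
Normalized count per kilobase of exon for the 8 genes in both groups on a log axis, as the mean with the SD of 5 libraries (*Erbb2* as the authors' means, with no SD). Circles use the union of exons and vertical ticks the longest transcript. *Erbb2*, at 403 and 405 per kb, is far above the other receptors, and *Nrg1*, *Nrg4* and *Hbegf* move to the right with the longest transcript.

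The other genes of the pathway, 97 genes in 8 lists, were examined in the same fit. The table held 96 of them under the symbols used, 55 of which were tested, and 34 had a mean above the search limit. Of the 55, 0 passed in either direction, 26 had a positive and 29 a negative log2 fold change, and the median was -0.01, against -0.0045 over all genes tested. An unadjusted *P* under 0.05 was found for 2 of the 55, against 3.54% of all genes. Without wild-type library 3, 0 passed, 33 were positive and 22 negative, the median was 0.0086 (0.00074 over all genes tested), and 1 had an unadjusted *P* under 0.05. The 34 genes above the limit had log2 ratios of the authors' means from -0.07 (*Nppa*) to 0.10 (*Rasa1*), with a median of 0.02. The remaining 7 were too low to test, at means of 3.24 or less, except *Egr1*, whose counts could not be settled (authors' means of 330 and 370).

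Upstream of the receptors, *Tgfa* and *Egf*, further ligands of EGFR, had log2 fold changes of 0.0048 (SE 0.0923) and -0.07 (SE 0.198). *Areg*, *Ereg*, *Epgn* and *Nrg3*, the remaining ligands apart from *Btc*, were at authors' means of 0.218 to 3.24 normalized counts and were not tested. The ligand shedding genes, proteases and the rhomboid pseudoproteases *Rhbdf1* and *Rhbdf2* that assist one of them (5 tested of 8), had log2 fold changes from -0.05 to 0.05, with *Adam17*, the main sheddase of HB-EGF, at 0.05 (SE 0.0589). *Lrig3*, of a family that includes negative regulators of the receptors, had the most negative value of all lists, -0.30 (SE 0.187, limma unadjusted *P* = 0.126).

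Downstream, adaptors that link the receptors to RAS (6 tested of 12) ranged from -0.06 (*Sos2*) to 0.04 (*Sos1*). The RAS-MAPK cascade itself (5 of 12) ranged from -0.09 (*Hras*) to 0.08 (*Braf*) and the PI3K-AKT-mTOR list (9 of 14) from -0.04 (*Pik3r2*) to 0.07 (*Pdpk1*), all on the log2 scale. Of the ERK-responsive targets, 15 of 18 were tested. *Etv4*, an ETS transcription factor induced by ERK signalling, had 190 ± 23.3 normalized counts in wild-type libraries and 164 ± 6.94 in null (log2 fold change -0.20, SE 0.084, limma unadjusted *P* = 0.0265, adjusted *P* = 0.998), and -0.15 without wild-type library 3 (limma unadjusted *P* = 0.0895). Its relatives *Etv1* and *Etv5* were at 0.04 and -0.08, the phosphatase gene *Dusp6* at 0.04 and the feedback inhibitor *Spry1* at 0.12, the highest of the lists. The trabeculation genes were mostly above the search limit (10 of 12). *Irx3*, a transcription factor of the trabecular conduction system, had 433 ± 17.2 and 396 ± 30.8 normalized counts (log2 fold change -0.13, SE 0.0579, limma unadjusted *P* = 0.033, adjusted *P* = 0.998), and -0.15 without that library. *Etv1*, *Etv5* and *Dusp6* were named after their values were seen.

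**Figure D5:**
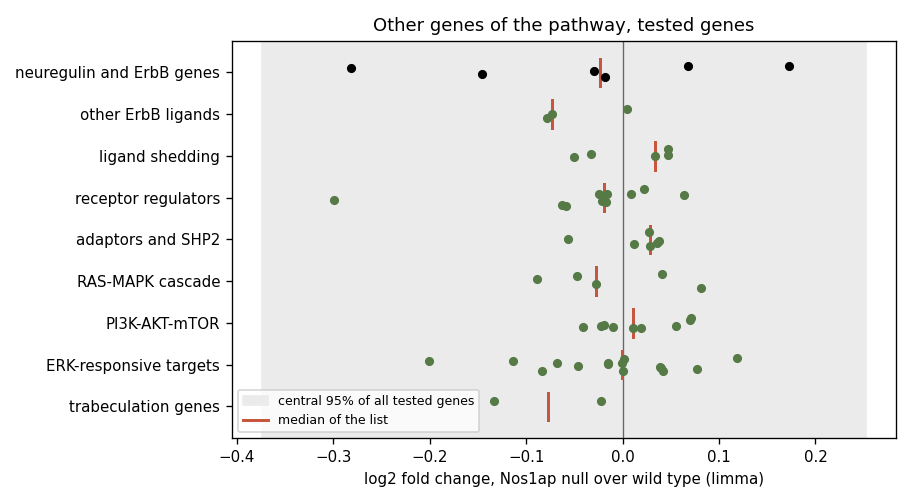
Log2 fold change of null over wild-type hearts for the 6 neuregulin and ErbB genes and the 55 further pathway genes in the fit, by list (points), with the median of each list (red line) and the central 95% of all genes tested (grey, -0.37 to 0.25). All points lie within the grey band, from *Lrig3* at -0.30 to *Erbb4* at 0.17.

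For each member in the fit, the protein-coding genes whose pattern over the 10 libraries was most like its own were taken by the root mean square difference of log2 values centred on the gene's mean. For *Nrg1* these were *Twist2* (0.153), *Tmtc2* (0.156) and *Dpysl4* (0.160), where *Nrg1* itself had a root mean square of 0.336, and like *Nrg1* they were highest in wild-type library 3. For *Erbb3* they were *Serinc2* (0.0825), *Gpc2* (0.0903) and *Sspo* (0.0981), with 0.196 for *Erbb3*. For *Egfr*, *Htr1b* (0.105), *Eml6* (0.117) and *Adamts5* (0.124) came nearest, with 0.263 for *Egfr*, and like *Egfr* they were lowest in null library 2 and highest in null library 4. *Ostm1* (0.0567), *Rxfp1* (0.0604) and *Sgms1* (0.0619) were nearest to *Erbb4* (0.129), *Nanos1*, *Dusp14* and *Alkbh3* (0.150 to 0.160) to *Nrg2* (0.306), and *Med31*, *Tmem80* and *Arhgef5* (0.0524 to 0.0542) to *Hbegf* (0.110). These are descriptions over libraries of which 1 stands apart, and carry no test.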

How the data were processed

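Reads were trimmed by the authors (Trimmomatic 0.36), aligned to GENCODE M10 transcripts on GRCm38 (STAR, from RSEM 1.2.31), counted with strand, and compared with DESeq 1.24.0. The deposited signal values used here are the authors' means of normalized counts, that is of read counts divided by size factors, over all libraries and per group. Columns with the authors' fold changes and p-values were not used.

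Whole counts giving each group mean under 1000 to its 15 digits were searched in a lattice, and taken where fewer than 0.01 sets as near were expected by chance (99.14% of wild-type and 99.19% of null means). Genes that differ widely between libraries are more often left out. Protein-coding genes recovered in both groups, and with a mean normalized count of 10 or more, entered limma 3.58.1 (R 4.3.3) as log2(normalized count + 1), trended and robust, with Benjamini-Hochberg adjustment at 5% over all of them. Fold changes on this scale understate those of low genes. Both scripts were tested on simulated data, in which all genes had the same spread beyond counting. Genes that differ widely between libraries, such as *Nrg1* in wild type, were not simulated, so these tests do not cover them. Lengths and coordinates are those of GENCODE M21 (GRCm38).

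The labels name separate samples by genotype and do not say more of their origin, so *P*-values measure the spread between these samples. Named genes are the 8 members, *Nos1ap*, the gene of each pathway list with the smallest *P* in each direction, and the 3 most alike genes per member. Members and lists were chosen with earlier results of these data known. Intervals of counting cover counting error only. The spans of *Erbb4* and *Erbb3* overlap noncoding genes on the same strand. Whether exons, and so reads, are shared with them was not checked. Alternatives changed the pseudocount, filter, gene types, scaling, tool, FDR, length and libraries. Values of some single marker genes are not reported here.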

Additional observations from a re-analysis of the deposited data

Results flagged for a closer look

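*Nrg1* in wild-type library 3, at 150.6 normalized counts, lay far from the other 4 wild-type libraries (71.2 to 84.8). Its gap to the nearest of them was 0.829 of the range of the group, above Dixon's 95% limit for 5 values. The gap was computed in 14 groups (7 genes in 2 genotypes), of which 1 passed, and chance passes about 1 in 20. Library 3 is the one with high neuron and glia markers. It also had the highest sum of cushion mesenchyme markers (1339, against 1336 in wild-type library 5). The part of any of these markers in the value was not tested.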

How the results depend on the processing

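The number of members past the threshold was 0 in all 16 alternative fits, which changed the pseudocount, the filter, the gene types, the scaling or the tool or left out 1 library, and also at an FDR of 10%. The lowest adjusted *P* of any member in any fit was 0.84 (limma), and the pathway lists also gave 0 in each of their alternatives. No paired analysis was possible because libraries derived from a group mean carry no replicate number. The ratio of the authors' means averages counts rather than log2 values and has no pseudocount. It turned the direction of *Nrg4* (log2 0.01, or 0.0108) and of *Egfr* (0.02, or 0.0166). A smaller pseudocount alone did not turn that of *Egfr* (-0.0181). With 1 library left out, the log2 fold change ranged from -0.0107 to 0.257 for *Nrg1* (direction reversed in 3 fits), from -0.129 to 0.125 for *Egfr* (4) and from -0.0815 to 0.0209 for *Hbegf* (1). The log2 fold change ranged from -0.408 to -0.178 for *Nrg2*, from -0.219 to -0.0529 for *Erbb3* and from 0.123 to 0.203 for *Erbb4*, with no change of direction. The extremes of *Nrg1* were those without wild-type libraries 4 and 3, in that order. With the longest transcript as the length, wild-type levels per kb moved to 17.1 for *Nrg1*, 3.20 for *Nrg4*, 12.5 for *Egfr*, 419 for *Erbb2* and 64.5 for *Hbegf*. The causes were not tested, other than the shorter lengths themselves. Of 146 alternative values, 131 kept their direction and their side of the threshold or stayed within the spread, 10 turned direction and 5 moved. *Nrg2* and *Nrg4* are limited by their counts, and *Erbb2* has no values of single libraries.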
